A study of Arabidopsis thaliana with 22 samples.

Results

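Acetylation of lysine 14 (H3K14Ac) and of lysine 23 (H3K23Ac) of histone H3 was compared in ein2-5 seedlings kept in air, from the list of enriched regions (peaks) deposited for each mark. The lists held 9363 H3K14Ac peaks and 12212 H3K23Ac peaks, together 21575 of the 105488 peaks in the 10 lists of the series. All peaks of both lists were used and none was selected on a measured value. ein2-5 is an ethylene-insensitive Arabidopsis thaliana mutant of EIN2, the membrane protein that carries the ethylene signal from the endoplasmic reticulum. Both marks came from whole seedlings that were dark-grown at 24 ºC, 3 days old, and kept for 4 h in hydrocarbon-free air without ethylene. Each list was called from 2 libraries pooled before calling, precipitated with an antibody to H3K14Ac (Millipore 07-353) or H3K23Ac (Millipore 07-355), and both were called against the same control library of ein2-5 seedlings in air, titled IgG control and labelled as Magnetic Protein G Beads. The remaining lists of the series cover Col-0, the wild type, and the same mutant with ethylene. Peak lists hold no genotype, so the ein2-5 label could not be checked from them, and a whole seedling mixes many cell types, so a peak cannot be assigned to any of them.

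Acetylation removes the positive charge of a lysine in the histone H3 tail, loosens its hold on DNA and offers a docking site for bromodomain proteins, and it is a mark of open and transcribed chromatin. Lysine 14 is a main substrate of the GCN5 family, which in Arabidopsis is the acetyltransferase HAG1, and lysine 23 lies further along the same tail. In plants these marks gather over the start of transcribed genes, and deacetylases of the RPD3 and HD2 families remove them.

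The DNA under 6 summits (the base of highest coverage in a peak) shows the classes that are compared below, peaks with both marks, with H3K14Ac only and with H3K23Ac only. They belong to the genes with the smallest P values of each class whose window held coding or intron bases only. Sequences are from the RefSeq copy of the TAIR10 chromosomes, written along the gene, with capitals between the summits of both marks for AGO2 and STN1 and over the 11 bases centred on the summit for the others. The windows lie at chr1:11181964-11182059 on the plus strand (AGO2), chr1:2188172-2188265 on the plus strand (STN1), chr2:8692829-8692909 on the plus strand (RPT2b), chr5:5872534-5872614 on the minus strand (VAR3), chr2:12187903-12187983 on the minus strand (LBD11) and chr2:18624824-18624904 on the plus strand (ATG8E). AGO2 and STN1 carried both marks, the peaks shown for RPT2b and VAR3 were of H3K14Ac with no H3K23Ac peak over them, and those for LBD11 and ATG8E of H3K23Ac with no H3K14Ac peak over them. All but the ATG8E window, which is intron sequence with 32.1% G and C, were in coding exons and held between 59.3% and 65.6% G and C.
AGO2: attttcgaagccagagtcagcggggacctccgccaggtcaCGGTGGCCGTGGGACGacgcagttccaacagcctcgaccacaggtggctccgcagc
STN1: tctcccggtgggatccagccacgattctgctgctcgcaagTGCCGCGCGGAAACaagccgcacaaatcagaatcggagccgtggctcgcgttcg
RPT2b: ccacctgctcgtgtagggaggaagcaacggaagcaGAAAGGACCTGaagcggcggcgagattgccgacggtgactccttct
VAR3: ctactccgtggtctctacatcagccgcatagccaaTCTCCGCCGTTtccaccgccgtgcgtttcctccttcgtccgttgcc
LBD11: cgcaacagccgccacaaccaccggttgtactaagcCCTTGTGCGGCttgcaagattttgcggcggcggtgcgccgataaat
ATG8E: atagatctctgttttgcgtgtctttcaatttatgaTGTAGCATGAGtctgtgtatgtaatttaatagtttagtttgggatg

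In the pooled lists, H3K23Ac gave 1.30 times as many peaks as H3K14Ac, and its peaks were wider. H3K14Ac peaks covered 2.76% of the 5 chromosomes and H3K23Ac peaks 4.12%. The median width was 302 bp for H3K14Ac (95% interval 299 to 306, quartiles 243 and 405) and 342 bp for H3K23Ac (338 to 346, quartiles 260.75 and 475). Peaks over 1000 bp numbered 82 for H3K14Ac and 253 for H3K23Ac. The strength of the peaks hardly differed: fold enrichment, the coverage at the summit over the local background of the control library, had a median of 1.85 for H3K14Ac and 1.86 for H3K23Ac and reached 4.10 and 4.30. The H3K23Ac list also rested on more reads, 36052363 against 28257938 after filtering, beside 13683768 for the shared control, and the part of depth in the number and width of peaks was not tested. Antibody and mark cannot be told apart. Intervals given here cover counting error over peaks only, since neighbouring peaks are not independent and each mark has a single list. No replicate spread or test between the marks could be computed from these pooled lists. The study does report peak counts per replicate for both marks in these seedlings. Those counts differed more between replicates for H3K14Ac than for H3K23Ac. The second H3K14Ac replicate had more peaks than either H3K23Ac replicate. The larger number of H3K23Ac peaks thus holds for the pooled lists and not for every pair of replicates.

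**Figure D1:**
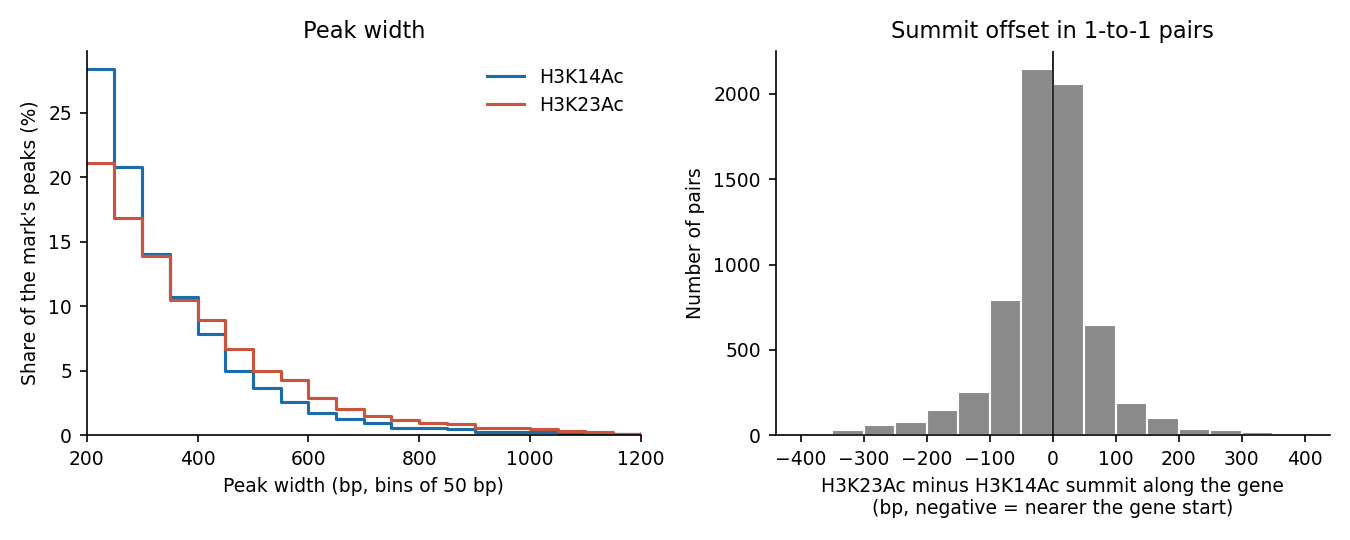
Left, the share of each mark's peaks (%) in each 50-bp bin of peak width, for 9363 H3K14Ac and 12212 H3K23Ac peaks, where H3K14Ac is higher in the narrowest bins (28.4% of its peaks are 200 to 250 bp wide). Right, the number of 1-to-1 pairs by the position of the H3K23Ac summit relative to the H3K14Ac summit along the gene (bp), for pairs with both summits in 1 gene and offsets within 400 bp, centred near 0 with a median of -4 bp.

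Most H3K14Ac peaks lay where H3K23Ac was also called, and the reverse held for a smaller share. Of the 9363 H3K14Ac peaks, 7550 (80.6%, 95% Wilson interval 79.8 to 81.4) overlapped an H3K23Ac peak by at least 1 bp, and of the 12212 H3K23Ac peaks 7383 (60.5%, 59.6 to 61.3) overlapped an H3K14Ac peak. In bases, H3K23Ac peaks covered 79.3% of the H3K14Ac peak sequence, against 4.12% of the genome, and H3K14Ac peaks covered 53.1% of the H3K23Ac sequence, against 2.76% of the genome. An H3K14Ac peak was found alone at 1813 sites and an H3K23Ac peak alone at 4829. When the lists were made equally long by keeping the H3K23Ac peaks with the smallest P values, the shares were 70.8% and 69.0%. Equally long lists whose overlaps are mostly 1 to 1 must give close shares, so this closeness is not a result about the marks. The study also reports the share of first-replicate peaks that overlapped the second replicate of the same mark in these seedlings. For H3K14Ac that share was below 80.6%, and for H3K23Ac it was above 60.5%, from peaks called per replicate rather than pooled. Replicates of 1 mark thus also missed peaks of each other, and a peak found alone is not shown to be particular to its mark.

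Within the 7116 pairs in which 1 peak of each mark overlapped only the other, the H3K23Ac peak was the wider in 74.2% (73.2 to 75.2), with a median of 397 bp against 324 bp. The H3K14Ac peak lay wholly inside the H3K23Ac peak in 52.8% of pairs and the reverse held in 10.3%. Fold enrichment was close: 1.90 at the median for H3K14Ac and 1.98 for H3K23Ac, with a median ratio of H3K23Ac to H3K14Ac of 1.04 and quartiles of 0.960 and 1.13. The local background at the 83 pairs with both summits on 1 base differed by at most 0.0166%, as both marks used 1 control. The ratio of the summit coverage itself, which uses no control background, also had a median of 1.04, with quartiles of 0.972 and 1.12. Across pairs the fold enrichments of the marks went together (Spearman rho 0.640, Pearson r of log2 values 0.68, n = 7116 pairs that share the control and the base composition of their site).

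Paired peaks overlap by definition, which limits how far apart their summits can lie. Within that limit their summits nearly coincided. The median distance between them was 35 bp (34 to 36), and 62.8% of pairs had summits within 50 bp, 84.1% within 100 bp and 90.8% within 150 bp, about the length of DNA on a nucleosome. Along the direction of transcription, in the 6694 pairs with both summits in 1 gene, the H3K23Ac summit was nearer the gene start in 53.3% (52.1 to 54.5) and farther in 45.6%, with a median offset of -4 bp (-5 to -2). This shift of a few bases is far smaller than the spread of the offsets, whose quartiles were -41 and 29 bp.

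The strongest pairs were in coding exons of genes of unlike function. AGO2 (AT1G31280), an Argonaute protein of RNA silencing, had the highest peak of both marks, with fold enrichments of 4.10 for H3K14Ac and 4.30 for H3K23Ac and summits 515 and 500 bp from the gene start. STN1 (AT1G07130), an OB-fold protein of telomere end protection, had 3.53 and 3.86. PFK2 (AT5G47810), a phosphofructokinase of glycolysis, was the one of the 8 strongest pairs with the higher value for H3K14Ac, 3.23 against 3.05. LRX3 (AT4G13340), a cell wall protein with leucine-rich repeats and an extensin-like part, carried the widest H3K23Ac peak of the list, 2347 bp, over an H3K14Ac peak of 1446 bp, with summits 1788 and 1955 bp from the gene start. The others were PUB25, TLP11, MTO1 and DND1, with fold enrichments from 3.06 to 3.38 for H3K14Ac and from 3.42 to 3.72 for H3K23Ac.

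The balance between the marks was examined in the 870 pairs with both summits in 1 gene with a symbol and both fold enrichments at least 2. The ratio of H3K23Ac to H3K14Ac ran from 0.764 to 1.52 among these pairs, which the lower limit on both values keeps close together. At the upper end, CYP71A28, a cytochrome P450, had 3.13 for H3K23Ac and 2.05 for H3K14Ac, ASY2, a HORMA-domain protein, had 3.02 and 2.03, and CKB3, a regulatory subunit of casein kinase II, had 3.21 and 2.26. At the lower end, GAMMA CAL1, a gamma carbonic anhydrase-like protein of mitochondrial complex I, had 2.01 for H3K23Ac and 2.64 for H3K14Ac, SYNC3, a tRNA synthetase, had 2.01 and 2.60, and RAPTOR1, a partner of the TOR kinase, had 2.29 and 2.82. These differences are between single pooled values.

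Peaks with 1 mark only were narrower and weaker than shared peaks, for both marks. The median width was 245 bp for H3K14Ac-only and 274 bp for H3K23Ac-only peaks, against 324 and 402 bp for the shared peaks of each mark, and the median fold enrichment was 1.74 in both one-mark classes against 1.90 and 1.98. At a q value under 0.05, which the authors did not require and which their file headers describe as not calculated although the column holds values, 79.3% of H3K14Ac-only and 89.1% of H3K23Ac-only peaks remained. The nearest peak of the other mark lay at a median of 2551 bp from an H3K14Ac-only peak and 3888 bp from an H3K23Ac-only peak, and within 500 bp for 13.8% and 9.34%. Of the one-mark summits inside a gene, 33.7% of the H3K14Ac-only summits were in a gene that carried an H3K23Ac peak elsewhere. For H3K23Ac-only summits, 17.9% were in a gene with an H3K14Ac peak elsewhere. Over all protein-coding genes, 37.5% overlapped an H3K23Ac peak and 29.8% an H3K14Ac peak. Those shares count genes with a peak anywhere. The one-mark shares count summits and leave out, by definition, the sites where the marks overlap. The 2 kinds of share are therefore not like for like, and no result is drawn from the lower values.

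Examples with H3K14Ac only included RPT2b (AT2G20140), a regulatory ATPase of the 26S proteasome, with a fold enrichment of 2.499 at 302 bp from the gene start and an H3K23Ac peak elsewhere in the gene. VAR3 (AT5G17790), a zinc finger protein of chloroplast development, had 2.33 at 208 bp, DCL4 (AT5G20320), a Dicer-like enzyme that makes small RNAs, had 2.35 at 516 bp, and ALA3 (AT1G59820), a phospholipid flippase, had 2.33 at 225 bp, all with no H3K23Ac peak in the gene. NHL8, EMB3113, EARLI1 and ACA8 followed, with 2.02 to 2.32. With H3K23Ac only, TLP1 (AT1G76900), a tubby-like protein, had 2.97 at 575 bp and LBD11 (AT2G28500), a LOB-domain transcription factor, had 2.98 at 350 bp. ATG8E (AT2G45170), which coats autophagosome membranes, had 2.54 at 600 bp, and SCPL34 had 2.51 at 426 bp. GATA1, TDT, BBC1 and MKK9 had an H3K23Ac-only peak of 2.40 to 2.63 and an H3K14Ac peak elsewhere in the gene.

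The one-mark classes differed in the position of the summit in the gene. Over all peaks with the summit in exactly 1 protein-coding gene, the median distance from the gene start was 448 bp for H3K14Ac (440 to 456, n = 8732) and 412 bp for H3K23Ac (406 to 417, n = 10934). Among peaks with fold enrichments of at least 2 these medians were 412.5 and 411 bp. Shared peaks were close, at 426 and 408 bp. H3K14Ac-only summits lay at a median of 853.5 bp (777 to 915, n = 1600), against 420 bp (410 to 431, n = 3971) for H3K23Ac-only summits, and 29.3% against 10.2% were more than 1500 bp into the gene. As a share of gene length the medians were 38.7% and 18.7%. The median gene length was 2645.5 bp for the former and 2457 bp for the latter, and the difference was seen at each gene length above 1 kb: in genes of 1 to 2 kb the medians were 628.5 and 388.5 bp, in genes of 2 to 3 kb 915 and 436 bp, in genes of 3 to 4 kb 1326 and 459 bp, and in longer genes 1463 and 466 bp. Among summits in coding exons they were 960.5 and 457 bp.

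**Figure D2:**
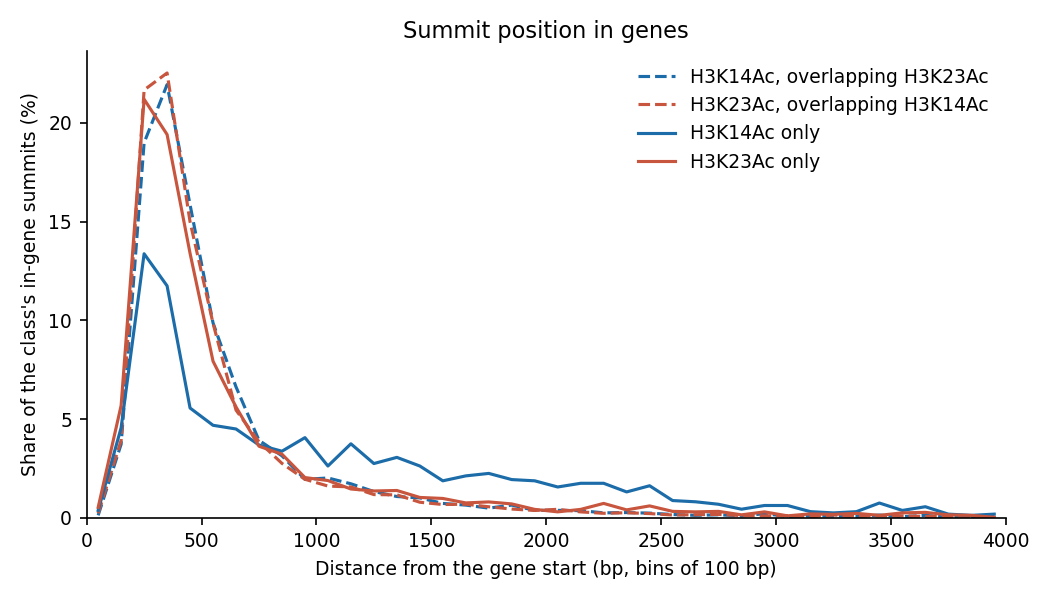
Share of in-gene summits of each class (%) in 100-bp bins of the distance from the gene start, for shared (dashed) and one-mark (solid) peaks of H3K14Ac and H3K23Ac. The shared classes and H3K23Ac only peak sharply between 200 and 400 bp, while H3K14Ac only has a lower maximum there and a tail into the gene, with 29.3% of its summits beyond 1500 bp.

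That position moved with the strictness of the lists. When both lists were first limited to fold enrichments of at least 2, H3K14Ac peaks without H3K23Ac had a median of 390 bp and the reverse class 419 bp, so the difference was no longer seen, although this class then also held peaks that overlap a weaker H3K23Ac peak. Taking instead the 158 H3K14Ac-only peaks of the full comparison with a fold enrichment of at least 2, the median was 555 bp with an interval from 344 to 1061 bp. The H3K14Ac-only peaks that overlapped an H3K14Ac peak of the same mutant with ethylene lay at 383.5 bp (356 to 411, n = 330), and those that did not at 1058.5 bp (982 to 1120, n = 1270). Split by the H3K14Ac list of Col-0 with ethylene, which is a single library, those overlapped still lay at 684 bp (601 to 778, n = 770) and the rest at 983 bp (891 to 1087, n = 830). H3K23Ac-only peaks varied less, with 389 and 485 bp when split by the H3K23Ac list of ein2-5 with ethylene and 412 and 442.5 bp when split by that of Col-0 with ethylene.

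One-mark peaks differed in how often separate libraries called the same mark there. In ein2-5 with ethylene, whose lists were called against another control library of 4333059 reads, an H3K14Ac peak overlapped 27.5% of the H3K14Ac-only peaks with a fold enrichment under 1.6, 16.2% of those from 1.6 to 1.8, 16.5% from 1.8 to 2 and 18.4% of those of at least 2. An H3K23Ac peak overlapped 60.8%, 48.3%, 50.8% and 63.0% of the H3K23Ac-only peaks in the same steps. At matched fold enrichment the H3K14Ac-only peaks were thus called again less often. The H3K14Ac list with ethylene was also the shorter, with 7932 peaks against 10909 for H3K23Ac, and the part of list length was not tested. H3K14Ac-only peaks were overlapped by an H3K14Ac peak with ethylene in 18.8% and by an H3K23Ac peak in 16.1%, and 239 of the 340 with an H3K14Ac peak there also had H3K23Ac. H3K23Ac-only peaks were overlapped by H3K23Ac in 53.2% and by H3K14Ac in 25.8%. So part of the one-mark sites carried both marks in the lists with ethylene. For shared peaks of at least 2, the same-mark values were 76.7% for H3K14Ac and 84.1% for H3K23Ac, beside 2.44% and 3.79% of the genome covered by the lists with ethylene. In Col-0 with ethylene, where the H3K14Ac list came from 1 library, 44.7% of H3K14Ac-only peaks overlapped an H3K14Ac peak and 59.8% of H3K23Ac-only peaks an H3K23Ac peak, and 1868 H3K23Ac-only peaks overlapped both marks there against 1019 with H3K23Ac only. H3K9Ac peaks of Col-0 in air, another acetylation of the same histone tail, overlapped 15.2% of H3K14Ac-only and 53.1% of H3K23Ac-only peaks.

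**Figure D3:**
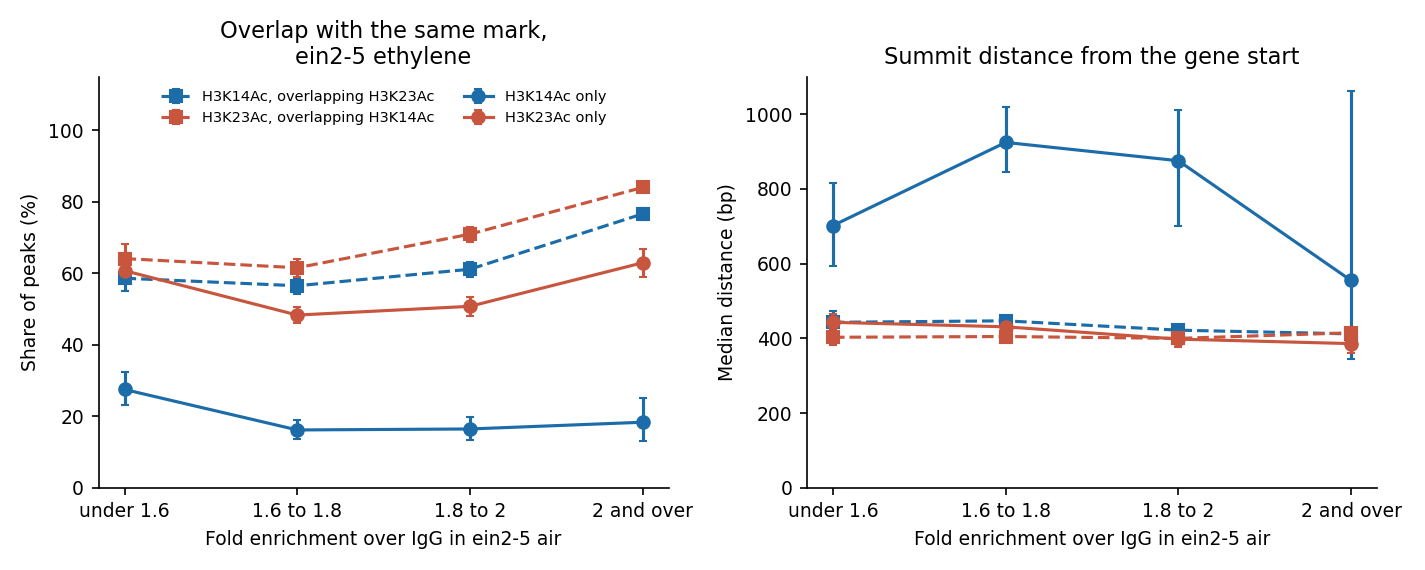
Left, the share of each class of ein2-5 air peaks (%) that overlaps a peak of the same mark in ein2-5 with ethylene, by fold enrichment in air, with 95% Wilson intervals; H3K14Ac-only peaks stay at 16.2% to 27.5% while the other classes lie at 48.3% or above. Right, the median summit distance from the gene start (bp) of the same classes with 95% intervals, where H3K14Ac only lies above the others below a fold enrichment of 2 and has a wide interval above it.

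The annotation under the summit also separated the classes. A coding exon held 74.4% of H3K14Ac summits (73.5 to 75.3) and 62.5% of H3K23Ac summits (61.7 to 63.4), against 27.6% of the bases of the 5 chromosomes. Introns held 11.9% and 17.4%, 5′ UTRs 6.30% and 8.32%, and the 1 kb upstream of genes 1.11% and 2.39%. The contrast came from the one-mark peaks: shared peaks had 74.4% and 72.2% of summits in coding exons, H3K14Ac only 74.6% and H3K23Ac only 47.7% (46.3 to 49.1). H3K23Ac-only summits were in introns in 22.5%, in 5′ UTRs in 9.55%, and outside genes in 16.4%, where H3K14Ac-only summits had 8.27%, 4.63% and 9.71%. Base composition moved with this: the median share of G and C in the 201 bases around the summit was 46.8% for H3K14Ac only, 40.3% for H3K23Ac only and 48.3% for shared peaks of either mark. It was 36.3% over the genome, 39.8% in windows 400 bp after the start of every gene of at least 800 bp, and 41.8% in windows centred in a coding exon. Within coding exons alone it was 48.3% and 46.3% in the one-mark classes, and over all H3K14Ac peaks it rose from 45.3% at fold enrichments under 1.6 to 54.7% at 2.5 and above. The part of base composition in these differences was not tested.

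**Figure D4:**
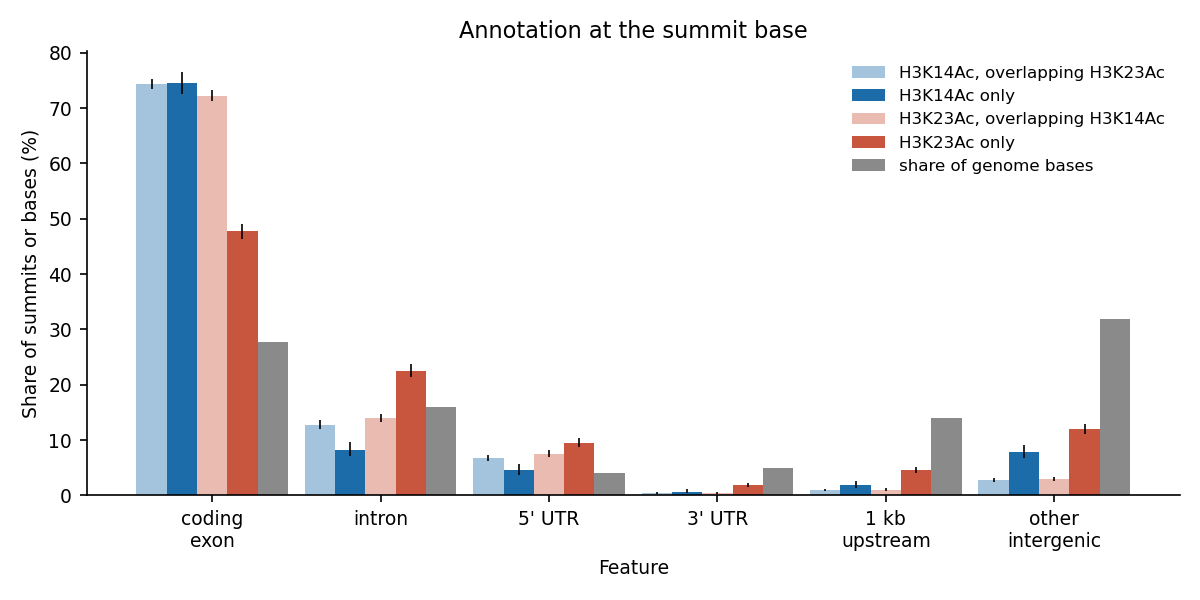
Share of summits (%) in each annotation class for shared and one-mark peaks of H3K14Ac and H3K23Ac, with 95% Wilson intervals, beside the share of genome bases in that class (grey). Coding exons hold between 72.2% and 74.6% of the summits of every class but H3K23Ac only, which has 47.7% there and 22.5% in introns.

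Short sequence motifs known from plant promoters were counted in the same 201-base windows, on both strands. The letters GAGAGA were in 21.1% of H3K14Ac-only, 26.9% of H3K23Ac-only and 28.8% of shared H3K14Ac windows, beside 27.5% of windows 400 bp after the start of every gene of at least 800 bp, and GCCGCC, the core of the GCC-box, in 7.56%, 7.66% and 17.9%, beside 6.11%. The telo-box AAACCCTA was in 3.70%, 6.71% and 6.90%, beside 6.51%. TATAAA was in 7.06% of H3K14Ac-only, 14.7% of H3K23Ac-only and 5.51% of shared H3K14Ac windows, beside 15.2%, so the one-mark classes stood apart in this motif, which holds only A and T. TGGGCC (site II) was in 3.42%, 1.39% and 2.26%, beside 1.58%, and CACGTG (G-box) in 3.70%, 1.97% and 3.06%, beside 2.28%. The windows set beside them do not match the classes in place, since H3K14Ac-only summits lie farther into genes and part of the H3K23Ac-only summits lie outside them. Over windows centred in any coding exon, GAGAGA was in 21.1%, GCCGCC in 4.19% and the telo-box in 1.96%. In the same windows TATAAA was in 11.6%, TGGGCC in 2.19% and CACGTG in 2.12%.

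By gene, a peak of both marks overlapped 7116 of the 27444 protein-coding genes (25.9%), a number that equals the count of pairs by coincidence. H3K14Ac alone overlapped 1075 genes (3.92%), H3K23Ac alone 3185 (11.6%) and neither 16068 (58.5%). Either mark was therefore on 41.5% of genes. Within 2 kb of a gene the counts were 12716 with both (46.3%), 1334 with H3K14Ac only (4.86%), 4000 with H3K23Ac only (14.6%) and 9394 with neither (34.2%), so that 65.8% had at least 1 of the marks. Marked genes were longer, with a median of 2389 bp for both marks, 2400 bp for H3K14Ac only and 2321 bp for H3K23Ac only against 1832 bp without a peak, so gene lists of unequal length are not on the same footing.

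Ethylene signalling genes carried a peak of either mark in 78.9%, against 41.5% of all genes. Of 19 genes, 10 overlapped both marks, 5 H3K23Ac only, 0 H3K14Ac only and 4 neither, with a median gene length of 3006 bp. Neither mark was on 21.1% of the list (8.51 to 43.3%), against 48.9% of all genes of 3 to 4 kb. Both marks were on CTR1, the kinase that holds the pathway off (fold enrichment 2.56 for H3K14Ac and 2.52 for H3K23Ac), on ERF1, a transcription factor induced by ethylene (2.42 and 2.20), on EIN3, the main transcription factor of the pathway (1.66 and 2.41), and on EIN2 itself (1.64 and 1.52). H3K23Ac only was on the receptor genes ETR1 (2.55) and ERS2 (1.66), on EIL1, the closest relative of EIN3 (2.08), on EDF3 (1.61) and on XRN4, an exoribonuclease (1.48). RTE1, ERS1, ETR2 and ARGOS had no peak of either mark. H3K23Ac was the higher in 7 of the 10 genes with both, near the 4525 of 7116 over all genes with both.

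The genes for which the study shows ChIP data were read in the same way. EBF2, an F-box protein that targets EIN3, had 2 H3K14Ac peaks (2.18 and 2.03, summits 1032 and 548 bp from the gene start) under a single H3K23Ac peak of 965 bp (2.52, 521 bp). BES1, a transcription factor of brassinosteroid response, had 2 H3K14Ac peaks (1.802 and 1.499, at 440 and 1079 bp) that overlapped 1 H3K23Ac peak (2.099, 462 bp). The weaker H3K14Ac peak lay only partly under it, with its summit outside, and did not reach a q value under 0.05. WRKY4 had 1 peak of each, with summits 517 and 540 bp from the gene start. ACT7, a vegetative actin, had 2 peaks of each, at 373 and 1953 bp for H3K14Ac and 283 and 1945 bp for H3K23Ac, and PHYA, the photoreceptor of dark-grown seedlings, had H3K23Ac only in the gene (1.97, 864 bp). NAC6 (AT5G39610), ETR2 and ARGOS had no peak within 2 kb. Among all peaks, 198 H3K23Ac peaks overlapped at least 2 H3K14Ac peaks as in EBF2 and BES1, and 36 H3K14Ac peaks overlapped at least 2 H3K23Ac peaks.

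Other gene families differed in the balance of the marks. Of 26 aquaporins, the water channels of membranes, 7 had both marks, 8 (30.8%) H3K23Ac only and 0 H3K14Ac only, and the H3K23Ac fold enrichment was the higher in 7 of the 7, with a median ratio of 1.28 against 1.04 over all genes with both. TIP2 (AT3G26520) had 2.53 for H3K23Ac and 1.82 for H3K14Ac and PIP1;5 (AT4G23400) had 2.32 and 1.59, while PIP2A (2.08) and GAMMA-TIP (2.00) had H3K23Ac only. Of 283 ribosomal protein genes, 84 had both, 10 H3K14Ac only and 65 (22.97%) H3K23Ac only, and of 68 genes of photosynthetic antennae and photosystems 12 had both, 4 H3K14Ac only and 14 (20.6%) H3K23Ac only. The H3K23Ac-only share of both families was above the 11.6% of all genes. In the photosynthesis list the H3K14Ac-only share (5.88%) had an interval of 2.31 to 14.2%, which holds the 3.92% of all genes. Another balance was counted in 76 genes with a peroxidase product name, with 8 both, 5 (6.58%) H3K14Ac only and 1 H3K23Ac only, in numbers too small to say more than the count. Members of large families can share reads, which the deposited lists do not show.

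Of 29 light signalling genes, with a median length of 3618 bp, 13 (44.8%, against 25.9% of all genes) had both marks, 1 H3K14Ac only, 5 (17.2%, against 11.6%) H3K23Ac only and 10 (34.5%, against 58.5%) neither. Of all genes of 3 to 4 kb, 31.7% had both marks, 14.3% H3K23Ac only and 48.9% neither. The intervals of the list, 28.4 to 62.5%, 7.60 to 34.5% and 19.9 to 52.7%, hold these shares. The photoreceptor PHOT1 had 2.08 for H3K14Ac and 2.64 for H3K23Ac. H3K23Ac only was on COP1 (1.91), the ubiquitin ligase that keeps seedlings in the dark programme, and on HY5 (1.89), the transcription factor that COP1 removes, and H3K14Ac only was on DET1 (1.91). Of 11 histone acetyltransferases, HAG1, the GCN5 enzyme, had both marks (2.26 and 2.32), as had HAC12, HAC5 and HAM2, HAM1 had H3K23Ac only and 6 had neither. Of 15 histone deacetylases 5 had both, among them HDA6 (2.19 and 2.09), and 2 had H3K23Ac only. These 2 lists are small, and their shares with both marks, 36.4% and 33.3%, have intervals that hold the 25.9% of all genes.

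Some lists were marked less than the rest of the genome, in which 58.5% of genes had neither mark. Of 26 regulators and storage proteins of seeds and floral organs, with a median gene length of 2492 bp, 21 (80.8%) had neither mark and 0 had both. The exceptions were AG (2.00), CRU3 (1.86) and SESA4 (1.73) with H3K14Ac only and LEC2 (2.09) and ABI3 (1.75) with H3K23Ac only. Of 193 defensin-like genes (median length 550 bp) 185 (95.9%) had neither, of 653 F-box genes (1367 bp) 555 (85.0%), and of 15 SAUR genes (730 bp) 14 (93.3%), where SAUR36 (1.96) had H3K23Ac only. These families are of short genes. Of all genes of up to 500 bp 91.3% had neither mark, of those of 500 to 1000 bp 79.4% and of those of 1000 to 2000 bp 61.2%. The defensin-like and F-box shares were above those of genes of their length, while the SAUR interval (70.2 to 98.8%) holds 79.4%. The defensin-like interval (92.0 to 97.9%) was only just above the 91.3% of genes of up to 500 bp.

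**Figure D5:**
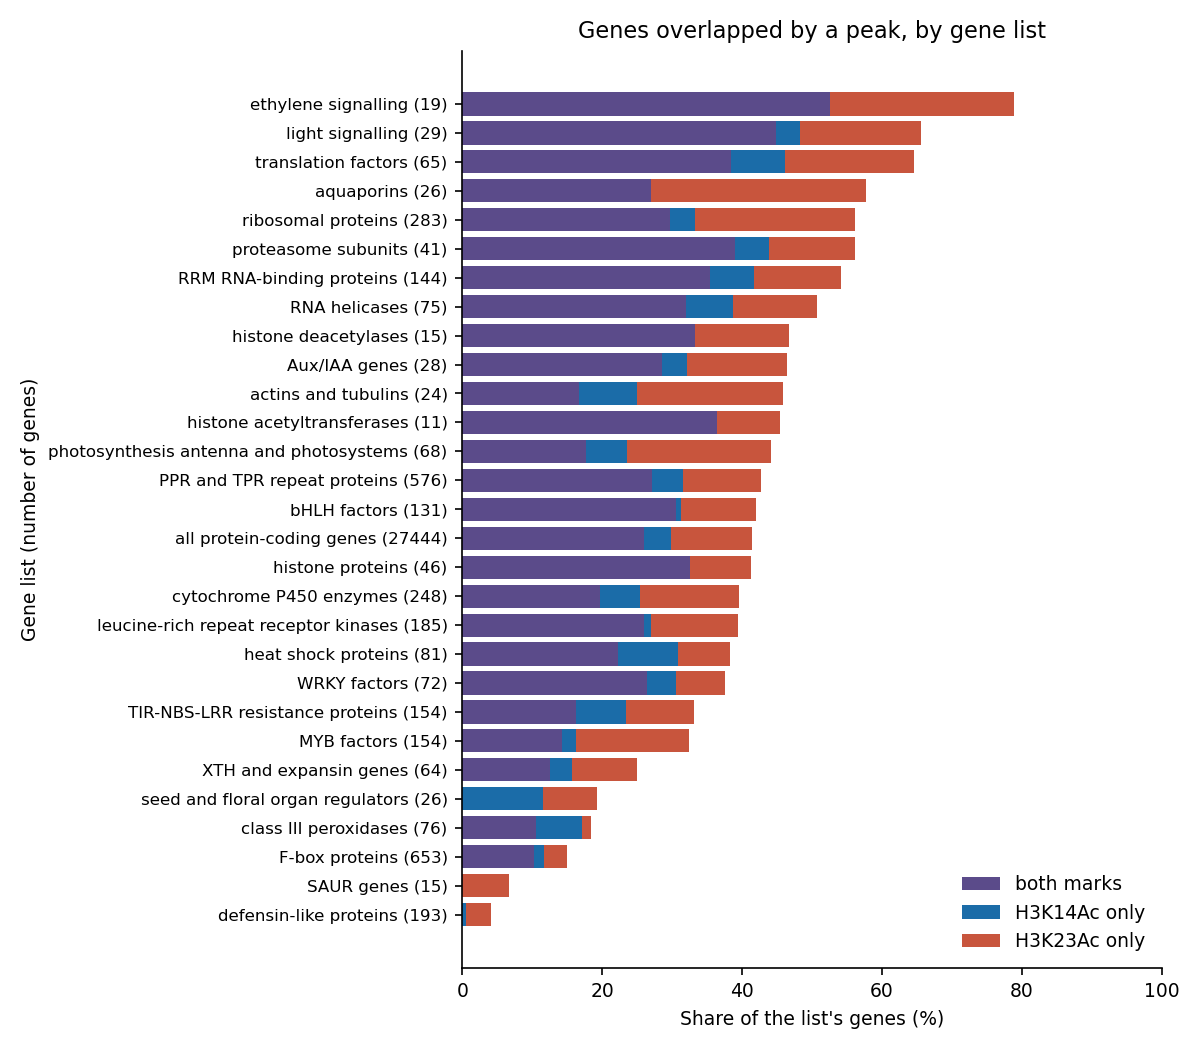
Share of the genes of each list (%) overlapped by a peak of both marks, of H3K14Ac only and of H3K23Ac only in ein2-5 air, with the number of genes in parentheses; the bar for all 27444 protein-coding genes adds up to 41.5%. Ethylene signalling, light signalling and translation factors lie at the top, and F-box, SAUR and defensin-like genes at the bottom.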

How the data were processed

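The deposited files are MACS2 peak tables, 1 per mark, genotype and treatment. Per the file headers and the labels, the authors aligned 51-base reads to TAIR10 with Bowtie2 2.1.0, removed duplicates, pooled 2 libraries per list (1 for the lists of H3K14Ac in Col-0) and called narrow peaks with MACS2 2.1.0.20150603 (no model, P threshold 0.01), scaling the larger library towards the smaller. SAMtools is also named, without a version. Per the file headers, each peak has a summit pileup (coverage signal), a fold enrichment (a ratio over the local control background), and a −log10 P value; all were used as deposited. The deposited −log10 q column was used for an alternative threshold only, since the headers call q not calculated while the column holds values above 0.

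Overlap was counted from 1 bp in Python 3.11.15 with numpy 2.4.6, pandas 2.3.3 and scipy 1.17.1. Peaks were placed on 27444 protein-coding genes of the RefSeq annotation, whose 5 chromosome lengths equal those of TAIR10, and the gene start is the outer end of the gene model. Shares carry Wilson and medians order-statistic 95% intervals. The overlap code was tested on simulated intervals. Because replicates were pooled before calling, no test between marks was run. Genes named are those the study shows, the 8 peaks or pairs of each class with the smallest P values in genes with a symbol, the 6 pairs with the highest and the 6 with the lowest ratio, and up to 4 examples for each of 28 gene lists made from symbols and product names; further list members, those of ethylene and light signalling above all, were named for their role after their values were seen. Members and lists were chosen with earlier results of these data known. Alternatives were a q threshold of 0.05, a fold enrichment of at least 2, lists of equal length, peaks merged within 200 bp, stricter overlaps (50% of the peak, or the summit inside the other peak) and gene windows of 1 and 0 kb.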

Additional observations from a re-analysis of the deposited data

How the results depend on the processing

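Of 67 values recomputed under an alternative, 33 stayed within the interval of the reported value (for gene counts, within 1.5 times) and 34 moved. H3K23Ac had the wider peaks under every alternative run, and more peaks under each that left the list lengths free. With q under 0.05, the H3K23Ac share overlapping H3K14Ac was 58.7%, the ratio of peaks 1.35, the median widths 309.5 bp (H3K14Ac) and 349 bp (H3K23Ac), and the H3K14Ac-only summit distance 744.5 bp. With fold enrichments of at least 2, the overlapping shares were 75.8% and 53.7%, the ratio 1.40, the widths 376 and 447 bp, the H3K14Ac summit distance 412.5 bp (390 bp without H3K23Ac), the summit offset 25 bp and the genes within 2 kb of both marks 4502. At equal list length, the shares were 70.8% and 69.0%, the H3K23Ac width 373 bp, its summit distance 403 bp, the one-mark distances 618 bp (H3K14Ac) and 396 bp (H3K23Ac), the offset 33 bp and the genes near H3K14Ac only 2478. With peaks merged within 200 bp, the H3K23Ac share was 61.5%, the widths 307 and 349.5 bp, and the H3K23Ac summit distance 404 bp (406 bp without H3K14Ac). Overlap of at least 50% of the peak gave 79.2% and 55.6%, and the summit inside the other peak gave 78.8% and 57.7%. Without a window, 7116 genes had both marks. Among the one-mark peaks of fold enrichment at least 2, an alternative chosen after seeing the data, the summit distances were 555 and 386 bp. The fall of the H3K14Ac-only distance to 390 bp came with another class membership, and its cause was not tested.

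No paired analysis was possible because the libraries of each mark were pooled before peak calling and 1 list per mark was analysed. For the same reason no library was left out. Depth limits the weaker sites, so a gene without a peak is one in which no peak was called at this depth.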

Other observations

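Summits outside protein-coding genes were 459 for H3K14Ac and 1080 for H3K23Ac. Among H3K14Ac-only peaks they numbered 176, of which 35 (19.9%) were in an annotated pseudogene, 16 in a long non-coding RNA gene and 122 (69.3%) in no annotated gene. Among H3K23Ac-only peaks they numbered 794, of which 48 (6.05%) were in a pseudogene, 83 (10.5%) in a long non-coding RNA gene, 17 in a small RNA gene and 627 (79.0%) in no annotated gene. H3K23Ac-only peaks thus reached intergenic sequence in greater number, and those outside coding genes held the smaller share in pseudogenes. For shared peaks outside coding genes that share was 26.5% for H3K14Ac and 26.2% for H3K23Ac, above both one-mark classes. None of these summits was in a tRNA gene.

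The deep position of H3K14Ac-only summits was not the same in the other lists, which were called against control libraries of other depths and, for H3K14Ac in Col-0, from 1 library. The median distance from the gene start of H3K14Ac peaks without H3K23Ac was 430 bp in ein2-5 with ethylene (n = 742), 344.5 bp in Col-0 in air (n = 268) and 1039.5 bp in Col-0 with ethylene (n = 4900), beside 853.5 bp in ein2-5 in air (n = 1600). For H3K23Ac peaks without H3K14Ac the values were 371, 476.5, 426.5 and 420 bp in the same order. Col-0 with ethylene was also the list pair in which H3K14Ac had more peaks than H3K23Ac, with a ratio of H3K23Ac to H3K14Ac peaks of 0.845 against 1.30 to 1.66 in the other pairs. The median summit offset of paired peaks was between 26 and 35 bp in all 4 pairs of lists. The close coincidence of the summits was thus seen in each, among peaks that overlap by definition.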
